A study of Mus musculus with 53 samples.

Results

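A set of 9 genes that mark microglia, the resident immune cells of the brain, was followed through 4 brain regions of mice that model spinocerebellar ataxia type 3 (SCA3) and of wild-type mice. The members were chosen by symbol (C1qa, C1qb, C1qc, Csf1r, Cx3cr1, P2ry12, Trem2, Tyrobp and Ctss), and 9 of 9 were rows of the count table, out of 12372 genes. RNA sequencing covered brainstem (8 wild-type, 6 SCA3), cerebellum (7 and 6), cortex (7 and 6) and striatum (8 and 5), with 53 libraries from 14 animals. The SCA3 mice were male MJD84.2 hemizygotes, whose transgene is the whole of human ATXN3, its CAG repeat expanded, driven in all tissues by its own human promoter, beside their intact mouse Atxn3 gene. The controls were wild-type males, both groups being on the C57BL/6 background and untreated, and tissue was taken at 17.5 months (74 to 77 weeks). The transgene is not restricted to any cell type, and a library is 1 dissected region of 1 mouse with all of its cells, so that for every gene below fewer microglia and less RNA per microglial cell cannot be told apart.

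Microglia survey the tissue with motile processes, clear debris and synapses, and depend on signals from neurons and glia. The members cover several of these functions. C1qa, C1qb and C1qc encode the chains of C1q, the recognition molecule of the classical complement pathway. Csf1r encodes the growth factor receptor that keeps microglia alive, while Cx3cr1 and P2ry12 encode the receptors for neuronal fractalkine and for extracellular ADP. Trem2 encodes a lipid-sensing receptor that signals through the adaptor encoded by Tyrobp, and Ctss encodes cathepsin S, a lysosomal protease. In brain tissue their transcripts come mainly from microglia, and P2ry12 marks microglia in their surveying state.

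In wild-type mice each of the 9 genes was lowest in cerebellum, at between 0.320 and 0.792 times its level in the other regions. In SCA3 mice 1 of the 9 genes was called changed, P2ry12, which was lower in brainstem (log2 fold change −0.37, SE 0.11, edgeR likelihood ratio test with Benjamini-Hochberg adjustment over 12372 genes, FDR = 0.042), where 1.92% of all genes were called. This call was kept in 14 of 27 alternative fits and in 5 of the 14 that left out 1 mouse. No member was called in cerebellum, cortex or striatum. Levels are given as CPM, read counts relative to the TMM-scaled library total, and a gene was called at an FDR under 0.05. Replicates within a group are different mice. The reported fit takes the 53 libraries as independent, with 1 dispersion per gene over the 8 groups of region and genotype. A test therefore does not use the spread of 1 region alone and takes no account of mice shared between regions.

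**Figure D1:**
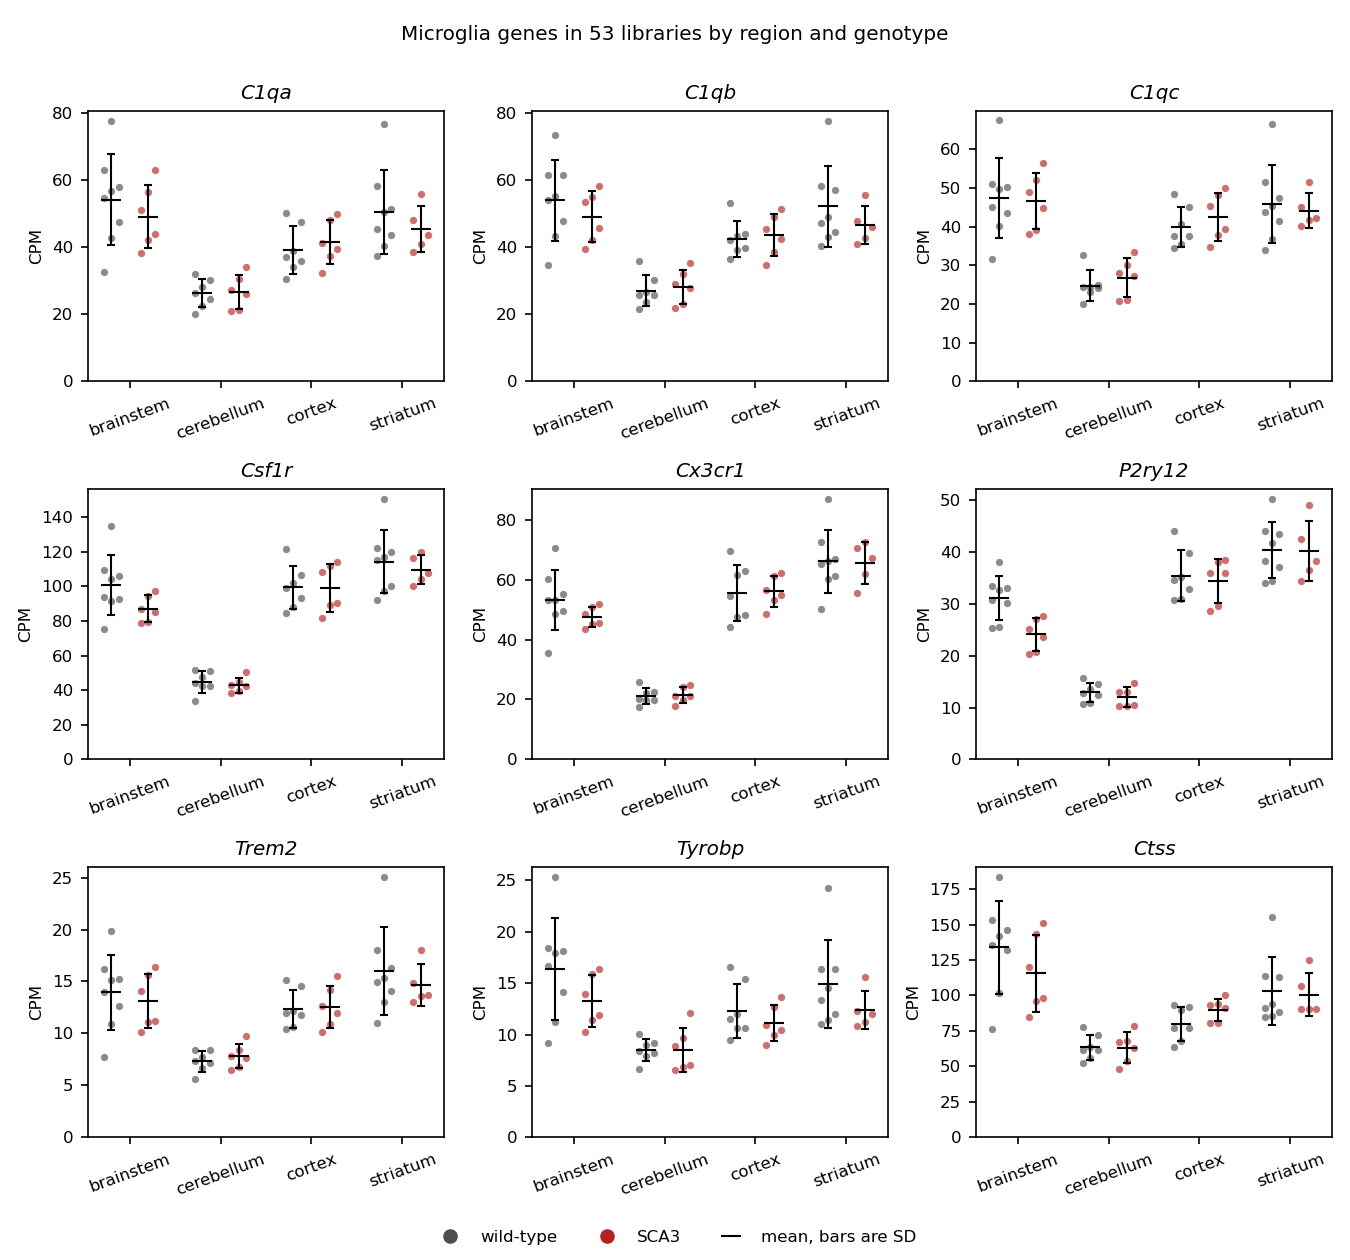
CPM (vertical axis, from 0) of each of the 9 genes in the 53 libraries, by region and genotype, with 1 point per library and the mean and SD in black. The cerebellar wild-type mean is the lowest for every gene, and for P2ry12 in brainstem the SCA3 points (20.4 to 27.7 CPM) lie mostly below the wild-type points (25.4 to 38.2 CPM).

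Library totals ranged from 31.7 to 76.7 M counts, and the least abundant member, Trem2, had at least 267 counts in a library. Markers followed the region labels in these comparisons of wild-type mice: 12 of 12 measured genes of striatal projection neurons were higher in striatum than in brainstem, and 6 of 6 granule cell genes were higher in cerebellum than in each other region. Cortex and striatum were less separate. The summed striatal genes were 926 to 3911 CPM in wild-type cortex and 2733 to 11381 CPM in striatum. The summed cortical neuron genes were 451 to 1915 CPM in cortex and 70 to 764 CPM in striatum. A pair of wild-type striatal libraries (mice 7267058 and 7267059) stood apart with a mean of 7 and 7.58 log2 CPM over 11 genes of thalamic neurons, against at most 5.12 in the other striatal libraries. RNA integrity (RIN) differed between genotypes in brainstem, at 7.78 ± 0.26 (SD, n = 6) for SCA3 against 7.24 ± 0.42 for wild-type mice (n = 8; exact two-sided permutation p = 0.011, 0.043 adjusted over the 4 regions). Reads on mouse Atxn3 differed by log2 0.01 to 0.33 between genotypes over the 4 regions and were called in striatum (FDR = 0.00012), while the human transgene was not analysed here.

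The C1q genes lie side by side on the minus strand of chromosome 4 (GRCm38), in the order C1qb (136880126 to 136886200), C1qc (136889801 to 136892936) and C1qa (136895916 to 136898844), with gaps of 3600 and 2979 bases and no shared exon bases (GENCODE models linked to RefSeq). The stretch before the annotated start was available for 6 of the 9 members (C1qb, C1qc, Cx3cr1, P2ry12, Trem2 and Ctss, RefSeq, GRCm38.p6), and no sequence of C1qa, Csf1r and Tyrobp was used here. GAGGAA, the core bound by the myeloid factor PU.1, was searched on both strands in the 300 bases around each start, and occurred in 4 of the 6 (C1qb, C1qc, Trem2 and Ctss), compared with 28.3% of 32851 promoters and 26.0% of 12279 promoters of genes in the table. With 6 sequences this is a description, and a match is no evidence of binding. The 250 bases before the start are printed for C1qb and C1qc, neighbours that varied most closely together, for Trem2, and for P2ry12, the gene that was called and in which no match was found. Capitals mark the core or its reverse complement, and all are written 5′ to 3′ along the gene's strand. For C1qc the RefSeq start lies inside the model given above, so that its stretch overlaps the first exon of that model.
C1qb (chr4:136886201-136886450, minus strand): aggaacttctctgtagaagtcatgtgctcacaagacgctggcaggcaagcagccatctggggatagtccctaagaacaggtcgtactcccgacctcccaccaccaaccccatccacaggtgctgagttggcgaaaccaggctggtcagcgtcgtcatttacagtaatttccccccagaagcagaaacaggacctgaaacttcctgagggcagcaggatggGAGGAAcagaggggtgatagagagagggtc
C1qc (chr4:136892915-136893164, minus strand): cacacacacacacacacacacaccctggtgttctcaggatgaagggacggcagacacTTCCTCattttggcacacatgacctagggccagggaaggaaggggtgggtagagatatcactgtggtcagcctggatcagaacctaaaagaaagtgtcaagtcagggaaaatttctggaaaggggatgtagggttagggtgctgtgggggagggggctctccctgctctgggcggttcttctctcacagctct
Trem2 (chr17:48346151-48346400, plus strand): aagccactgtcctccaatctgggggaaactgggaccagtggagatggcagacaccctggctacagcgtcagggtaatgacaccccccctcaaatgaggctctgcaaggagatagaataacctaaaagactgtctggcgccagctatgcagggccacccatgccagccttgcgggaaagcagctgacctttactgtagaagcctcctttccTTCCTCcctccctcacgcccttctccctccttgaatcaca
P2ry12 (chr3:59262986-59263235, minus strand): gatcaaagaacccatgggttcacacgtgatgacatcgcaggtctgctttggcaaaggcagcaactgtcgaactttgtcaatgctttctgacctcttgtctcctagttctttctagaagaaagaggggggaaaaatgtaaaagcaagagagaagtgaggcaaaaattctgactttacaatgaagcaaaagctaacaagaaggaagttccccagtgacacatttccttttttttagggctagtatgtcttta
The match began at position −30 from the RefSeq start in C1qb, −193 in C1qc and −40 in Trem2. The letters TATAAA were also searched on both strands at any position in the 300 bases. They occurred in 1 of the 6 (Ctss, against 6.75% of promoters of genes in the table). That match was the reverse complement, near the upstream end of the stretch, and is not read as a TATA box. An AP-1 site, TGANTCA, occurred in 1 of the 6 (Trem2, against 4.76%).

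The C1q genes had closely matched CPM, which is not corrected for exon length. Per kilobase of exon C1qc was lower, with 39.4 against 52.0 for C1qa in wild-type brainstem. Over the 53 libraries the ratio of C1qb to C1qa CPM had a median of 1.06 (0.747 to 1.28) and that of C1qc to C1qa a median of 0.975 (0.752 to 1.17). In wild-type brainstem C1qa was 54.1 ± 13.5 CPM (SD, n = 8), with a lowest value of 32.6, a median of 55.7 and a highest value of 77.6. In wild-type cerebellum it was 26.2 ± 4.16 CPM (n = 7, with 20.2, 26.2 and 31.997), so that the 2 regions did not overlap, and 7 of 7 mice with both regions were higher in brainstem. The fold between them was 2.06 (95% CI 1.69 to 2.51, FDR = 1.1e-11). C1qb and C1qc differed between these regions by factors of 1.99 and 1.91, although the highest cerebellar values slightly exceeded the lowest brainstem values.

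Cortex and striatum lay between these extremes for the complement genes. C1qa was 39.1 ± 7.11 CPM in cortex (n = 7) and 50.4 ± 12.5 CPM in striatum (n = 8), and its order was brainstem, striatum, cortex and cerebellum, with brainstem and striatum not distinguished (FDR = 0.54). C1qa was higher in brainstem than in cortex by a factor of 1.38 (FDR = 0.0030), in 7 of 7 mice. C1qb followed the same order and was also higher in brainstem than in cortex (1.27-fold, FDR = 0.017), a call lost with RIN as a covariate (0.095), with a RIN of 7 or more (0.068) and without mouse 7267058 (0.082). For C1qc, with 47.4 ± 10.3 CPM in brainstem and 39.97 ± 5.19 CPM in cortex, this difference missed the threshold (FDR = 0.079). In the libraries with a RIN of 7 or more, brainstem was not above striatum for these genes (log2 −0.0016 for C1qa, −0.041 for C1qb and −0.095 for C1qc).

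The surface receptors had a different order of means, which were highest in striatum. Striatum was distinguished from cortex for Cx3cr1 (FDR = 0.047, kept in 14 of 24 alternatives) but not for P2ry12 (FDR = 0.15). Csf1r was 114 ± 18.4 CPM in striatum and 101 ± 17.3 CPM in brainstem (n = 8 each), while cortex had 99.3 ± 12.6 and cerebellum 44.7 ± 6.13 CPM (n = 7 each). Its cerebellar values (33.7 to 51.5 CPM) did not overlap those of any other region, and no pair of the other 3 regions passed the test (FDR between 0.090 and 0.85). Csf1r was nevertheless lower in brainstem than in striatum in 8 of 8 mice, and this difference passed in a fit blocked on mouse (log2 −0.18, FDR = 0.017) and in the 49 libraries with a RIN of 7 or more (−0.28, FDR = 0.012). Cx3cr1 was 66.1 ± 10.6 CPM in striatum, followed by cortex with 55.4 ± 9.40, brainstem with 53.2 ± 10.1 and cerebellum with 21.2 ± 2.70 CPM. P2ry12 was 40.4 ± 5.49, 35.5 ± 4.89, 31.2 ± 4.26 and 12.995 ± 1.84 CPM in the same order. Both were lower in brainstem than in striatum, Cx3cr1 with a log2 difference of −0.31 (SE 0.10, FDR = 0.0042) and P2ry12 with −0.38 (SE 0.10, FDR = 0.00046), in 8 of 8 mice for each. Their cerebellar levels were 0.320 and 0.322 times the striatal ones, the widest regional differences among the 9 genes.

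The means of Trem2 and of its adaptor Tyrobp had different orders only in brainstem and striatum, which were not distinguished for either gene (FDR = 0.22 and 0.47). Trem2 was 15.97 ± 4.23 CPM in striatum, followed by brainstem with 13.9 ± 3.63, cortex with 12.4 ± 1.82 and cerebellum with 7.32 ± 0.99 CPM, and neighbours in that order differed only at the step to cerebellum (FDR = 2.3e-06). Tyrobp was 16.4 ± 4.97 CPM in brainstem, 14.9 ± 4.32 in striatum, 12.3 ± 2.65 in cortex and 8.48 ± 1.08 in cerebellum, and was 1.33-fold higher in brainstem than in cortex (FDR = 0.023). This call of Tyrobp was kept in 18 of 24 alternatives and lost with limma-voom and no block (FDR = 0.064), with RIN as a covariate (0.13), with a RIN of 7 or more (0.10) and without mouse 7267058, 7267059 or 9082857 (0.061 to 0.079). Ctss had the steepest order outside cerebellum, with 134 ± 32.6 CPM in brainstem, 103 ± 24.0 in striatum, 80.1 ± 11.9 in cortex and 63.4 ± 8.85 in cerebellum. Each step in the order of Ctss passed the test (FDR = 0.0094, 0.031 and 0.029), but none did so in every alternative. The step from striatum to cortex was lost without the 2 striatal libraries rich in thalamic transcripts (FDR = 0.24), with RIN as a covariate (0.063) and without mouse 7267058, 7267059 or 9082857 (0.095 to 0.12). The step from cortex to cerebellum was lost without mouse 7267055, 9083371 or 9083375 (0.063 to 0.15), and that from brainstem to striatum with a RIN of 7 or more (0.082) and without mouse 9083371 (0.051). Cerebellum was nearer to cortex for Ctss (0.792 times) than for the other members.

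Over all 6 pairs of regions in wild-type mice, 9 of 9 members were called in each of the 3 pairs with cerebellum, where 72.6% of all genes were called against brainstem, 69.7% against cortex and 69.5% against striatum. The direction was the same for the 9 genes, while the median over all genes was within 0.02 of log2 0 in each pair. Without mouse 7267055, 9083371 or 9083375 the number against cortex was 8. Between brainstem and cortex 4 members (C1qa, C1qb, Tyrobp and Ctss) were called, and these 4 were higher in brainstem, with 65.4% of genes called. P2ry12 was lower in brainstem than in cortex in 7 of 7 mice and was called in a fit blocked on mouse (log2 −0.21, FDR = 0.034), with a RIN of 7 or more (FDR = 0.045) and without mouse 7267059 (FDR = 0.046). Between brainstem and striatum 3 (Ctss higher, Cx3cr1 and P2ry12 lower in brainstem) were called, with 64.2% of genes called. Between cortex and striatum 4 (C1qa, Cx3cr1, Trem2 and Ctss) were called, where 34.4% of genes were called, and all were lower in cortex. Without the 2 striatal libraries rich in thalamic transcripts this last number fell to 0, while that between brainstem and striatum stayed at 3 and that between cerebellum and striatum at 9 (median log2 difference −0.80, from −0.94). The number between cortex and striatum was also 0 with RIN as a covariate. It was 0 without mouse 7267059 or 9082857 and 1 without mouse 7267058 or 9083371, and the number between brainstem and cortex was 2 without mouse 7267058 and 2 with RIN as a covariate. The shares of members called outside cerebellum were below those of all genes in 2 of these 3 pairs, and in cortex against striatum they were 4 of 9 against 34.4%.

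Per kilobase of exon, which allows genes to be compared, wild-type levels in brainstem ranged from 12.2 to 98.6 CPM per kb. Ctss was highest with 98.6 ± 24.0 CPM per kb (n = 8), followed by C1qa (52.0 ± 13.03), C1qb (49.6 ± 11.1) and C1qc (39.4 ± 8.59). Tyrobp (29.0 ± 8.82) and Csf1r (26.1 ± 4.48) were close to each other, as were Cx3cr1 (14.2 ± 2.69), P2ry12 (13.6 ± 1.86) and Trem2 (12.2 ± 3.17). Tyrobp, which serves as the adaptor of several receptors, was above Trem2 on this scale in brainstem and also in cerebellum, with 15.0 ± 1.92 against 6.40 ± 0.87 CPM per kb (n = 7).

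**Figure D2:**
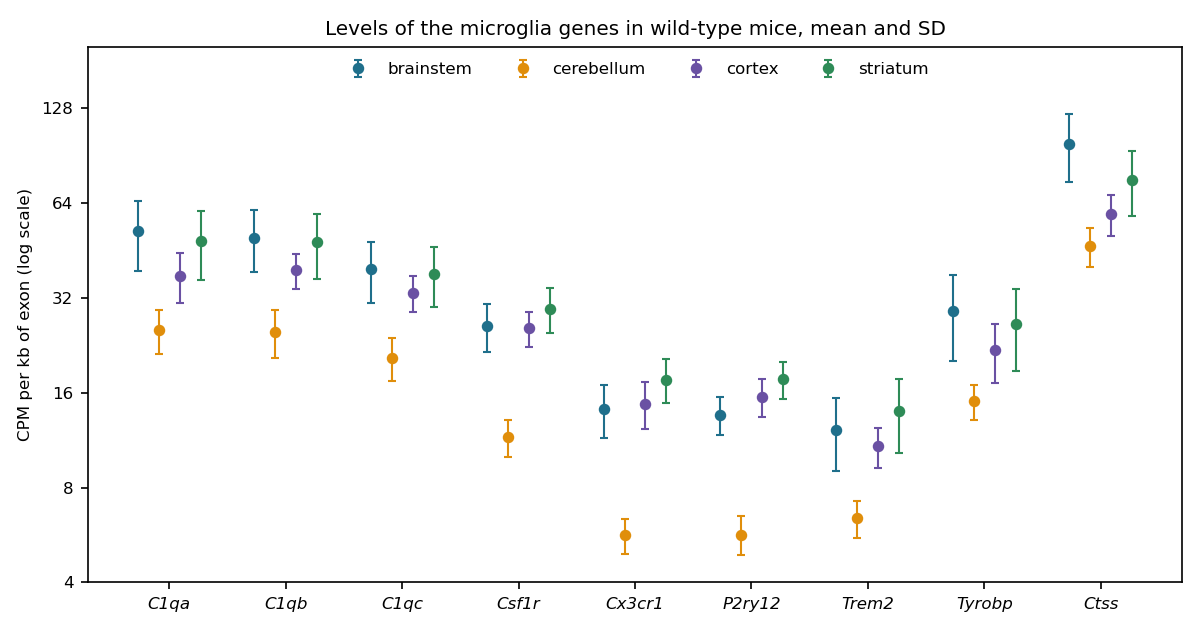
CPM per kb of exon (log axis) of the 9 genes in wild-type mice, mean and SD over 7 or 8 mice, with 1 colour per region. The mean is lowest in cerebellum for all genes, highest in brainstem for the C1q genes, Tyrobp and Ctss, and highest in striatum for Csf1r, Cx3cr1, P2ry12 and Trem2. The reported test did not distinguish brainstem from striatum for the C1q genes, Tyrobp, Csf1r and Trem2, nor cortex from striatum for P2ry12.

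The balance between Ctss and Cx3cr1 within a library differed by region. In wild-type mice the log2 ratio of Ctss to Cx3cr1 CPM was 1.31 ± 0.16 in brainstem (SD, n = 8, range 1.07 to 1.47) and 1.58 ± 0.22 in cerebellum (n = 7, range 1.24 to 1.84). It was 0.54 ± 0.22 in cortex (n = 7, range 0.12 to 0.75) and 0.63 ± 0.15 in striatum (n = 8, range 0.45 to 0.84). The libraries of brainstem and cerebellum did not overlap with those of cortex and striatum. The SCA3 means were 1.25, 1.55, 0.68 and 0.61 in the 4 regions. The ratio of C1qa to C1qc overlapped between all regions, with wild-type log2 means of 0.18, 0.078, −0.040 and 0.13 in brainstem, cerebellum, cortex and striatum. The log2 ratio of the mean of the C1q genes to P2ry12 in brainstem was 0.71 ± 0.25 in wild-type mice (n = 8, range 0.38 to 1.18) and 0.99 ± 0.29 in SCA3 mice (n = 6, range 0.49 to 1.31), with overlapping groups and no test.

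P2ry12 was the member that differed between genotypes. The gene lies on the minus strand of chromosome 3 (59216271 to 59262985) within Med12l, which is on the opposite strand, and the genes share 9 exon bases, where counting without strand cannot tell them apart. In brainstem P2ry12 was 30.2, 25.5, 38.2, 30.9, 32.8, 33.1, 25.4 and 33.4 CPM in the 8 wild-type mice. In the 6 SCA3 mice it was 20.7, 20.4, 27.2, 25.1, 23.7 and 27.7 CPM. The groups overlapped, although 4 of 6 SCA3 mice were below the lowest wild-type mouse, 6 of 8 wild-type mice were above the highest SCA3 mouse, and 6 of 6 SCA3 mice were below the wild-type median. The means were 31.2 ± 4.26 CPM (SD, n = 8) and 24.1 ± 3.12 CPM (n = 6), a fold of 0.774 (95% CI 0.668 to 0.897, FDR = 0.042), and 1.92% of all genes were called in brainstem.

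The P2ry12 call lay close to the threshold. Its estimate stayed negative in every alternative run, from −0.41 to −0.25, while the FDR ranged from 0.014 to 0.18. Leaving out 1 mouse gave log2 fold changes of −0.41 to −0.32, and the call was lost in 9 of 14 cases (FDR = 0.052 to 0.18), namely without wild-type mouse 7267059, 9082857, 9083371, 9083372 or 9083375 or without SCA3 mouse 7267054, 7267056, 9083513 or 9083514. With edgeR's quasi-likelihood F test the FDR was 0.060. RIN was higher in the SCA3 brainstem libraries (above), and with RIN as a covariate the estimate was −0.37 and the FDR 0.076. The mean of the oligodendrocyte genes was 8.76 ± 0.24 log2 CPM in SCA3 and 9.12 ± 0.32 in wild-type brainstem (exact two-sided permutation p = 0.039, 0.15 adjusted), and their summed level was 9654 to 16232 CPM and 10595 to 21964 CPM. With this mean as a covariate in the brainstem libraries alone, an alternative chosen after seeing the data, the P2ry12 estimate was −0.25 (FDR = 0.17).

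In the other regions P2ry12 was close between genotypes. It was 12.995 ± 1.84 CPM in wild-type (n = 7) and 12.0 ± 1.93 in SCA3 cerebellum (n = 6), a log2 fold change of −0.12 (95% CI −0.34 to 0.10). The values in cortex were 35.5 ± 4.89 (n = 7) and 34.5 ± 4.26 CPM (n = 6; −0.04, −0.26 to 0.18). In striatum, the 5 SCA3 mice had 42.6, 36.6, 49.2, 34.5 and 38.4 CPM, within the wild-type range of 34.0 to 50.2 (−0.01, −0.23 to 0.22). The test of whether the genotype effect differed between regions did not pass for P2ry12 (edgeR, FDR = 0.63), so that an effect particular to brainstem was not shown. The joint test over all regions gave an FDR of 0.14.

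The other receptors were not called. Csf1r had an FDR of 0.36 in brainstem, with 101 ± 17.3 CPM in wild-type (n = 8; 75.4, median 99.0, 135) and 87.1 ± 7.67 in SCA3 mice (n = 6; 78.7, median 86.1, 97.4). The SCA3 values lay within the wild-type range and 6 of 6 were below the wild-type median. Cx3cr1 in brainstem was 53.2 ± 10.1 and 47.6 ± 3.34 CPM (log2 −0.16, 95% CI −0.38 to 0.05), again with 6 of 6 SCA3 mice below the wild-type median. In cortex, the estimates of Csf1r (−0.0019) and Cx3cr1 (0.02) were near 0, with intervals within 0.24 on either side.

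The C1q genes showed no called difference in any region in the reported fit, but in the fit of brainstem alone with the oligodendrocyte mean as a covariate C1qa (0.29, FDR = 0.0037) and C1qc (0.30, FDR = 0.019) were called higher in SCA3 mice. C1qa in brainstem was 54.1 ± 13.5 CPM in wild-type and 49.1 ± 9.45 CPM in SCA3 mice (n = 6; 38.1, median 47.5, 63.0), and the SCA3 values lay within the wild-type range. Over the 4 regions the log2 fold changes were −0.15 to 0.08 for C1qa, −0.16 to 0.06 for C1qb and −0.05 to 0.11 for C1qc, with SE between 0.13 and 0.16. The widest of their intervals, that of C1qa in striatum, ran from −0.47 to 0.17.

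Trem2 and Tyrobp were not called either. Trem2 had log2 fold changes of −0.12 to 0.10. Tyrobp was lower in SCA3 means in brainstem (16.4 ± 4.97 and 13.3 ± 2.52 CPM, log2 −0.30, FDR = 0.45) and in striatum (14.9 ± 4.32 and 12.4 ± 1.88 CPM, −0.27, FDR = 0.38). Its wild-type values were widely spread, from 9.22 to 25.4 CPM in brainstem, where they enclosed those of the SCA3 mice, while in striatum 1 SCA3 mouse was below the lowest wild-type mouse. Ctss was 134 ± 32.6 CPM in wild-type and 116 ± 27.0 CPM in SCA3 brainstem (−0.21, FDR = 0.55). In cortex Ctss was 80.1 ± 11.9 and 89.9 ± 7.93 CPM (0.17, 95% CI −0.13 to 0.46), and 6 of 6 SCA3 mice were above the wild-type median.

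**Figure D3:**
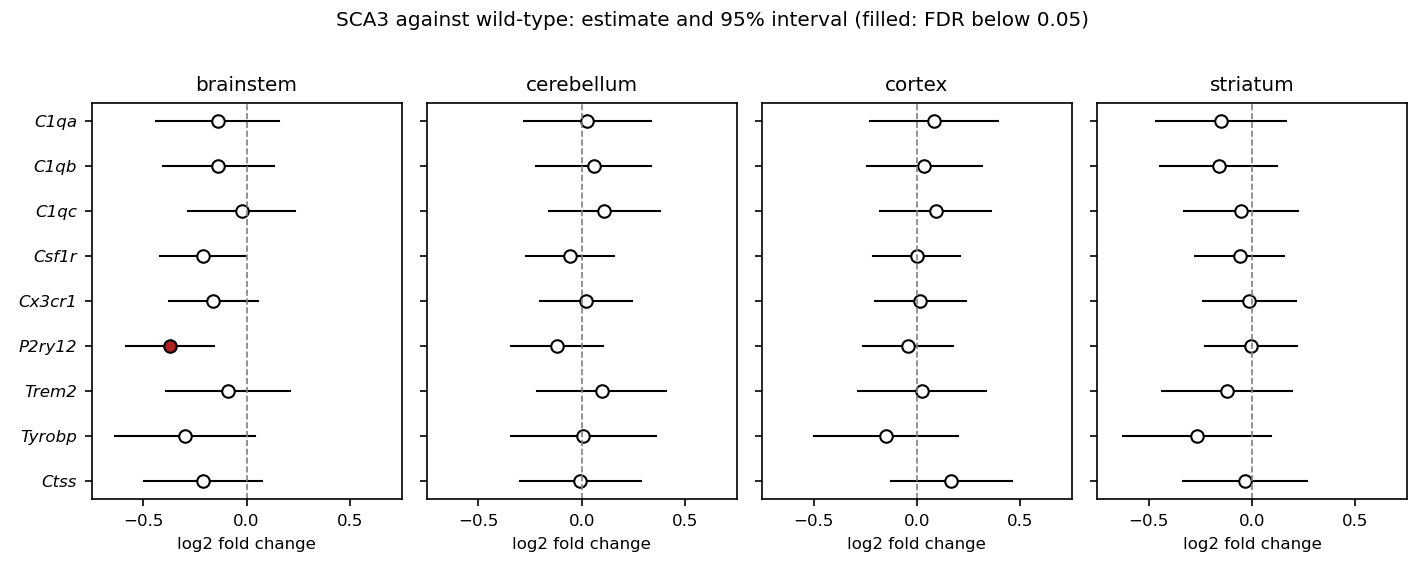
Log2 fold change of SCA3 over wild-type (horizontal axis) for each gene in the 4 regions, with the 95% interval, where filled points have an FDR below 0.05. P2ry12 in brainstem (−0.37) is the filled point, and the estimates in cerebellum and cortex lie on both sides of 0.

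Read together by region, 1 of 9 members was called in brainstem (background 1.92%), 0 of 9 in cerebellum (0.0647%), 0 of 9 in cortex (0.154%) and 0 of 9 in striatum (7.54%). The striatal background of 933 genes was itself unstable, being 297 without mouse 9083515, 1833 without mouse 9082857 and between these without each other mouse, 289 without the 2 libraries rich in thalamic transcripts and 88 in a fit of the striatal libraries alone. At an unadjusted p under 0.05 there were 2 in brainstem (P2ry12 and Csf1r) and 0 in each other region. In the joint test over the regions 0 of 9 were called (background 4.73%; 1 at an unadjusted p under 0.05), and in the test of region dependence 0 of 9 (0.218%; 0 unadjusted). DESeq2 called 1 in brainstem and 0 elsewhere. The 9 estimates in brainstem were all negative, with a median of −0.16 beside 0.003 over all genes, of which 49.0% were negative. Without wild-type mouse 7267059 8 were negative with a median of −0.093, with a RIN of 7 or more 8 with −0.093, and with RIN as a covariate 7 with −0.10. With the oligodendrocyte mean as a covariate, 7 of the 9 brainstem estimates turned positive and 4 were called higher in SCA3 mice, in a fit of the brainstem libraries alone that called 1184 of all 12372 genes. The fit of these libraries without the covariate called 392 genes and the reported fit of all libraries 238. The 4 members called with the covariate were C1qa and C1qc, with the values given above, Ctss (0.24, FDR = 0.030) and Trem2 (0.34, FDR = 0.040). In striatum the 9 estimates were also negative (median −0.06, all genes −0.003), but without the 2 libraries rich in thalamic transcripts 3 were negative and the median was 0.02. In cerebellum and cortex 6 of 9 were positive, with medians of 0.02 in both, and this majority rested on single mice. In cerebellum 7 were negative without mouse 7267054 (median −0.051), 6 without 9083371 and 5 without 9082853, 9083375 or 9083515, and in cortex 5 were negative without 9082857, 9083371, 9083513 or 9083514.

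Of 22 other microglia-enriched genes listed, 20 were in the table, among them Aif1 and Tmem119. Of these 0 were called between genotypes in any region, and 19 of 20 estimates in brainstem were negative (median −0.17), against 49.0% of all genes. They come from the same libraries as the members, with the same RIN difference, and varied with them (median r 0.78), so they are not a separate observation. Their values with RIN or the oligodendrocyte mean as a covariate are not given here. In wild-type mice 20 of 20 were called lower in cerebellum than in each other region, with a median of −1.14 against brainstem. Of 8 listed genes of perivascular and meningeal macrophages 2 were in the table, and of 10 markers of blood cells 0 were, so that the defining markers Mrc1, Lyve1, Ccr2 and the haemoglobin genes have no values here. The summed level of the macrophage pair was 13.2 to 32.1 CPM in wild-type and 16.1 to 23.3 CPM in SCA3 brainstem, beside 329 to 691 and 375 to 525 CPM for the 9 members.

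Of the ligands and partners of the members, Csf1 and Apoe were called between genotypes, both lower in SCA3 striatum. Csf1, a ligand of CSF1R, was 32.8 ± 8.38 CPM in wild-type (n = 8; 24.2 to 51.1) and 23.4 ± 2.91 in SCA3 mice (n = 5; 20.7 to 28.2; log2 −0.49, SE 0.14, FDR = 0.016). Apoe, a lipid carrier that TREM2 binds, was 1604 ± 209 and 1220 ± 105 CPM (−0.40, SE 0.11, FDR = 0.0094). Neither call held without the 2 striatal libraries rich in thalamic transcripts (−0.33, FDR = 0.19 for Csf1 and −0.33, FDR = 0.085 for Apoe). Il34, the other ligand of CSF1R, and Cx3cl1, the ligand of CX3CR1, had estimates of −0.29 to 0.32 and −0.24 to 0.22 over the regions with no call. The same held for C3, the central complement protein (−0.61 to 0.0047), for the kinase gene Syk (−0.17 to 0.11), for Irf8, a transcription factor of myeloid cells (−0.14 to 0.12), for Cst3, an inhibitor of cathepsins (−0.28 to −0.12), and for Entpd1, the ectonucleotidase that breaks down ATP and ADP (−0.14 to 0.14). Hcst and Spi1 were not in the table.

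The CSF1R ligands had different regional orders in wild-type mice, Il34 being highest in cortex and Csf1 in brainstem. Il34 was 61.7 ± 9.33 CPM in cortex (n = 7) and 39.6 ± 11.9 CPM in striatum (n = 8), and lower with 21.3 ± 4.03 CPM in brainstem (n = 8) and 11.1 ± 3.11 CPM in cerebellum (n = 7). Csf1 was 53.1 ± 12.8 CPM in brainstem, 32.8 ± 8.38 in striatum, 30.6 ± 2.44 in cerebellum and 26.5 ± 1.95 in cortex, and the step from brainstem to striatum passed the test (log2 0.69, FDR = 8.5e-08). Cx3cl1 was 692 ± 171 CPM in cortex, 631 ± 144 in striatum, 229 ± 26.1 in brainstem and 90.7 ± 21.0 in cerebellum, so that ligand and receptor were both lowest in cerebellum, while brainstem had 0.960 times the cortical level of Cx3cr1 and a log2 difference of −1.60 in Cx3cl1.

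The further lists around the members gave few calls, all lower in SCA3 striatum, where 7.54% of all genes were called. Of 14 measured complement genes 0 were called in any region, and of 13 genes around CSF1R, CX3CR1 and P2RY12 1 was (Csf1). Of 11 genes around TREM2 and TYROBP 2 were called in striatum, Apoe and Clu (−0.25, FDR = 0.014), which encodes the lipid carrier clusterin. Of 13 cathepsins and cystatins 1 was called there, Ctsc, a lysosomal protease (−0.56, FDR = 0.017). A single call in a list of 13 genes is near the share over all genes. Of 18 genes known to rise in disease-associated microglia 4 were called there, led by Apoe, Csf1 and the tetraspanin gene Cd63 (−0.36, FDR = 0.019). Without the 2 striatal libraries 0 genes of these 4 lists were called in striatum, in a fit where the calls over all genes there fell from 933 to 289, while the log2 fold changes were −0.49 for Ctsc (FDR = 0.11), −0.20 for Clu (FDR = 0.13) and −0.24 for Cd63 (FDR = 0.22). Genes of other glia moved in the same regions, where 1.92% of all genes were called in brainstem and 7.54% in striatum: 6 of 12 astrocyte genes were called lower in SCA3 brainstem and 6 of 12 in striatum (Gja1, −0.58 and −0.47, Ndrg2, −0.42 and −0.44, Slc1a2, −0.83 in brainstem), as were 2 and 4 of 10 oligodendrocyte genes (Mal, −0.65 and −0.80, Mobp, −0.81 in striatum) and, in striatum, 7 of 11 thalamic genes (Prkcd, −3.47, Zic1, −2.17, Rab37, −2.26). Of 10 neuronal genes 1 was called, lower in striatum (Stmn2, −0.60), and of 6 granule cell genes 2, lower in striatum (Zic2, −2.13, and Pax6, −0.63). No gene of the endothelial list (10 measured), the striatal projection neuron list (12), the cortical list (5), the choroid plexus list (3) or the macrophage pair was called in any region by edgeR. Without the 2 striatal libraries the genes called in striatum were 0 of 12 for astrocytes (median −0.23, from −0.34), 0 of 10 for oligodendrocytes (−0.11, from −0.39), 2 of 11 for thalamus, 0 of 10 for neurons and 1 of 6 for granule cells, and in brainstem 6 astrocyte and 4 oligodendrocyte genes were called. The part of these differences in the values of the members was not tested beyond the covariate fits given above.

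The 9 genes varied together between mice of the same group. After subtraction of the mean of each of the 8 groups of region and genotype, Pearson r over the 53 libraries was between 0.47 (C1qb with P2ry12) and 0.93 (C1qb with C1qc, C1qa with Trem2). The libraries come from 14 mice, and genes of 1 library share its depth and dissection, so r is given as a description. Each member was then set against the mean of the other 8. C1qa (0.95), C1qc (0.93), Trem2 (0.92) and Ctss (0.90) were nearest to it, Csf1r (0.76) and P2ry12 (0.64) furthest. In wild-type libraries alone the lowest pair was again C1qb with P2ry12 (0.47).

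**Figure D4:**
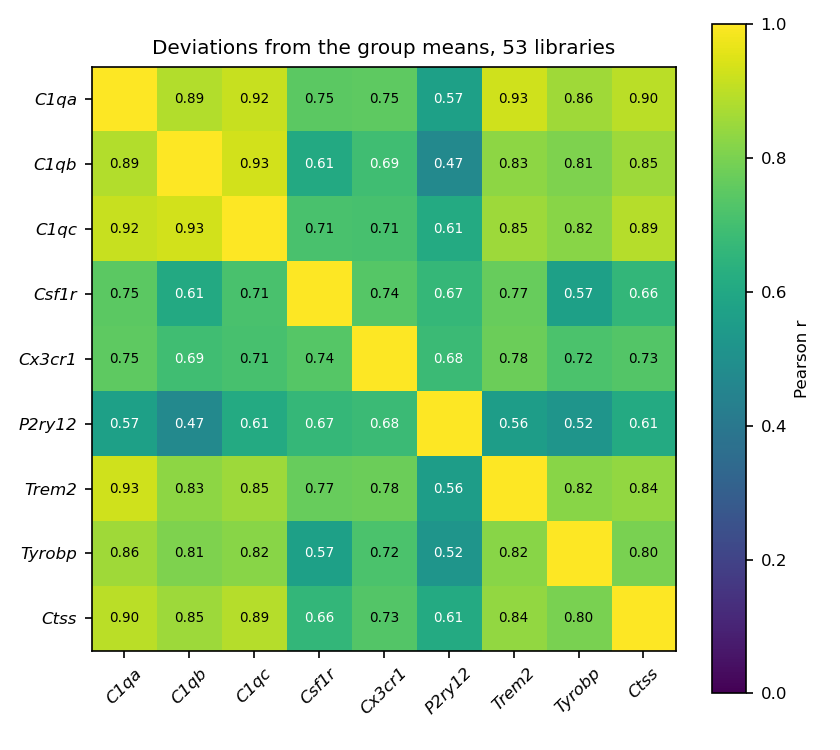
Pearson r between the 9 genes over 53 libraries, computed on log2 CPM after subtraction of the group means, with the colour scale running from 0 to 1. The C1q genes, Trem2, Tyrobp and Ctss form a block of values of 0.80 or more, and the row of P2ry12 holds values of 0.47 to 0.68.

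Of all other genes in the table, those most like the mean of the members included Arhgap30 (r = 0.93), 4632428N05Rik (0.92), Unc93b1 (0.92), Pld4 (0.91), Aif1 (0.905), Ly86 (0.90), Nckap1l (0.90), Fcer1g (0.90) and Ncf1 (0.89). Aif1 encodes the microglial marker IBA1, Fcer1g the common chain of Fc receptors and Ncf1 a subunit of the phagocyte NADPH oxidase. The median r was 0.78 over the 20 other microglia-enriched genes and −0.01 over all 12363 genes outside the members. It was 0.57 over the oligodendrocyte genes, 0.39 over the astrocyte genes and −0.02 over the neuronal genes. Among ligands and partners, Irf8 (0.74), Entpd1 (0.71) and Syk (0.67) were closest, while Il34 (−0.03) and Cx3cl1 (−0.02) did not vary with the members.

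Mice that were high in one region were high in another for some pairs of regions. The mean deviation of the 9 genes from the group mean correlated between brainstem and striatum of the same mouse with Pearson r = 0.84 and Spearman rho = 0.74 over 13 mice, and with r = 0.56 without the 2 mice farthest out in brainstem. These were wild-type mouse 7267059, with log2 deviations of 0.50 in brainstem and 0.54 in striatum, and wild-type mouse 9083373, with −0.60 and −0.34. The brainstem library of mouse 7267059 had the lowest RIN in that region (6.3), and its striatal library was 1 of the 2 rich in thalamic transcripts. Brainstem and cortex had r = 0.58 and rho = 0.56 (13 mice; r = 0.39 without the 2 farthest mice), and the other 4 pairs had r between −0.23 and 0.40.

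**Figure D5:**
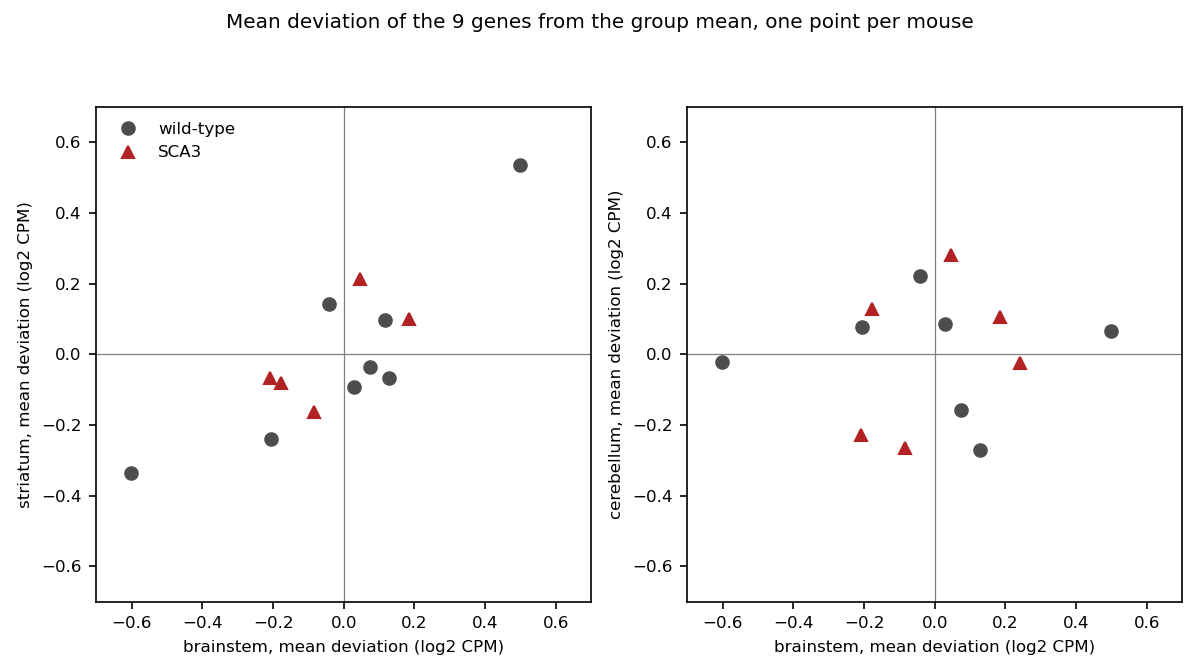
Mean deviation of the 9 genes from the group mean (log2 CPM) in brainstem (horizontal axes) against striatum (left) and cerebellum (right), with 1 point per mouse. Points follow the diagonal on the left (r = 0.84, 13 mice) and are scattered on the right (r = 0.09, 13 mice).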

How the data were processed

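Whole-number read counts per gene were deposited by the authors for 53 poly-A libraries without strand information. Per the study's methods and submitters' notes, reads were trimmed (Sickle, Cutadapt 1.10), aligned to GRCm38 with STAR 2.3.0e keeping unique alignments, and counted over RefSeq genes with HTSeq 0.6.1, and genes averaging above 4 CPM were kept (lowest mean 4.07 CPM). Reads of overlapping genes on opposite strands are therefore not separated, and genes below the limit are not analysed here.

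Counts were fitted with edgeR 4.0.16 (R 4.3.3; TMM scaling, 8 groups of region and genotype over 53 libraries, likelihood ratio tests, as in the study), with Benjamini-Hochberg adjustment over 12372 genes and calls at an FDR below 0.05. Intervals are 95% Wald intervals. Log2 CPM used a prior count of 2. Exon lengths and positions come from GENCODE models of GRCm38 linked to RefSeq. RIN and marker means were compared with exact two-sided permutation tests. Alternatives used DESeq2 1.42.0, limma 3.58.1 and the settings named in the closing section; the code was tested on simulated data. The members, the lists and their tests were chosen with earlier results of these data known. Genes named were the members, their ligands and partners, the 10 genes most like the members and up to 3 called genes per list. Some genes that this rule names are not reported here.

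Replicates are different mice. Up to 4 libraries came from the same animal, which is the source of the pairing between regions. After group means were removed, same-mouse libraries of different regions had a mean r of 0.0904 to 0.186 for the 6 pairs of regions (12 or 13 mice), and the blocked fit estimated 0.14.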

Additional observations from a re-analysis of the deposited data

Results flagged for a closer look

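Of 72 groups of 1 member, region and genotype that were screened with Dixon's criterion, 3 held a library far from the others, where chance gives about 1 in 20. C1qc in wild-type cerebellum was 32.8 CPM in mouse 9082857, with the nearest other library at 25.1 CPM. In the striatum of wild-type mouse 7267059 Tyrobp was 24.3 CPM, with the nearest other library at 16.4 CPM, and Ctss was 155.3 CPM, with the nearest at 113.5 CPM. The same striatal library had the highest mean of thalamic genes, and its part in these values was not tested.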

How the results depend on the processing

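Of 3517 values recomputed under 28 alternative settings, 14 of which left out 1 mouse each, the counts of members called stayed within 1.5 times in 273 and moved in 22, and the members' estimates kept direction and side of the threshold in 2485, lost the call in 57, gained one in 7 and changed sign in 106, 4 of which were also called only under the alternative (C1qa, C1qc, Ctss and Trem2 in brainstem with the oligodendrocyte covariate). Of the values of named list genes 455 kept both, 110 lost the call and 2 changed sign. The members called in brainstem, 1 with the reported test, were 0 with the quasi-likelihood F test, with RIN as a covariate and with a RIN of 7 or more, 4 with the oligodendrocyte covariate, and 0 to 1 when 1 mouse was left out. The 4 called in wild-type brainstem against cortex were 2 with RIN as a covariate and 2 to 4 without 1 mouse. The 4 called in cortex against striatum were 2 with limma-voom and no block, 0 with RIN as a covariate, 0 without the 2 striatal libraries, and 0 to 5 without 1 mouse. The causes were not tested. The oligodendrocyte covariate and the removal of the 2 striatal libraries were chosen after seeing the data.

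With the mean of the oligodendrocyte genes as a covariate in a fit of 1 region the brainstem genotype estimates became C1qa 0.29, C1qb 0.18, C1qc 0.30, Ctss 0.24, Cx3cr1 0.0849, Trem2 0.34, Tyrobp 0.18, and the striatum genotype estimates became C1qa 0.0662, C1qb 0.0461, C1qc 0.13, Csf1r 0.0913, Ctss 0.18, Cx3cr1 0.11, P2ry12 0.0496, Rab37 0.0354, Trem2 0.13. With the thalamic mean as a covariate in a fit of 1 region the striatum genotype estimates became C1qa 0.0306, C1qc 0.0559, Csf1r 0.0219, Ctss 0.14, Cx3cr1 0.0520, Trem2 0.0475, and the brainstem genotype estimates became C1qc 0.0159. Without the 2 wild-type striatal libraries rich in thalamic transcripts the striatum genotype estimates became C1qa 0.0217, C1qc 0.0669, Csf1r 0.0233, Ctss 0.12, Cx3cr1 0.0604, Rab37 0.0864, Trem2 0.0544. With the 49 libraries of RIN 7 or more the wild-type difference of brainstem against striatum became C1qa −0.00157, C1qb −0.0407, C1qc −0.0954, Tyrobp −0.0207, and the brainstem genotype estimates became C1qc 0.0662, and the wild-type difference of brainstem against cortex became Csf1r −0.0474. With RIN as a covariate the brainstem genotype estimates became C1qc 0.0271, Trem2 0.00235, and the cortex genotype estimates became Csf1r 0.00561, and the wild-type difference of brainstem against cortex became Csf1r −0.0174, and the cerebellum genotype estimates became Tyrobp −0.00766. With DESeq2 the cortex genotype estimates became Csf1r 0.000699. With RLE size factors the cortex genotype estimates became Csf1r 0.000696. With limma-voom and no block the cerebellum genotype estimates became Tyrobp −0.0167. With the series of mouse numbers as a covariate the cerebellum genotype estimates became Tyrobp −0.00746. Leaving out 1 mouse at a time, estimates crossed 0 with these ranges, in cerebellum C1qa −0.0539 to 0.0883, C1qb −0.0144 to 0.14, Ctss −0.0797 to 0.0638, Cx3cr1 −0.0235 to 0.0760, Tyrobp −0.12 to 0.0747, in cortex C1qb −0.0110 to 0.0974, Csf1r −0.0430 to 0.0553, Cx3cr1 −0.0283 to 0.0794, P2ry12 −0.0730 to 0.0199, Trem2 −0.0418 to 0.0793, in wild-type brainstem against striatum C1qb −0.00129 to 0.0753, in brainstem C1qc −0.0959 to 0.0662, in striatum C1qc −0.12 to 0.0412, Csf1r −0.0991 to 0.00589, Ctss −0.12 to 0.0732, Cx3cr1 −0.0608 to 0.0529, P2ry12 −0.0855 to 0.0446, in wild-type brainstem against cortex Csf1r −0.0474 to 0.0648.

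With the mouse as a random replicate block in limma-voom, P2ry12 in brainstem was −0.36 (FDR = 0.042), Csf1r in wild-type brainstem against cortex −0.0029, Cx3cr1 in striatum 0.0028 and Tyrobp in cerebellum −0.018. With the mouse as a fixed block in edgeR, which can be fitted for regions, Csf1r in brainstem against cortex was −0.038, Csf1r in brainstem against striatum (FDR = 0.017) and P2ry12 in brainstem against cortex (−0.21, FDR = 0.034) gained a call, and Trem2 in cortex against striatum lost it (FDR = 0.057). Neither block moved a count of calls by over 1.5 times. Counts per member were 267 or more in each library.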
